A study of Mus musculus with 3 samples.

Results

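The genes described here encode splicing factors and heterogeneous nuclear ribonucleoproteins (hnRNPs). They are the 52 protein-coding genes of the GENCODE M21 annotation of mouse build mm10, among 21851, whose symbol begins with Srsf (11 genes), Sf3 (9), Snrp (12) or Hnrnp (20). Chromatin at their promoters was read from DNase-seq, a sequencing assay of the sites where the enzyme DNase I reaches and cuts DNA, in liver of mouse embryos aged 13.5 days. The mice had the background C57BL/6N,129, and the labels call them WT with a single copy of the A20 YAC, a yeast artificial chromosome carried by all samples. The 3 libraries are biological replicates 1, 2 and 3 of 1 group, from separate biosamples under 1 donor entry. There was thus no treated, mutant or control group, nor a test between groups, and sex was not collected.

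Splicing removes introns from newly made RNA and is carried out by the spliceosome, which is built from small nuclear ribonucleoproteins (snRNPs) and many further proteins. The Snrp genes encode snRNP proteins, among them the Sm proteins, which form a ring around spliceosomal RNAs, and the Sf3 genes encode the SF3a and SF3b complexes of the U2 snRNP, which hold the branch point of the intron. SR proteins, from the Srsf genes, bind exonic enhancers and recruit the spliceosome, whereas hnRNP proteins coat nascent transcripts and often repress the use of exons. Embryonic liver is the main site of red blood cell formation at this age and holds erythroid cells beside hepatoblasts, and all of these cells splice their transcripts.

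The promoter window of a gene spanned 1000 bp in each direction from every coding transcription start site (TSS), and its signal was the highest deposited signal of a peak overlapping that window. Signals are scaled by library, so genes were ranked: a percentile gives the percentage of all protein-coding genes that ranked below a gene by promoter signal in that library, and genes without a peak were set to 0. A footprint is a short stretch that the authors listed as protected from cutting within accessible DNA, and a shared footprint is the stretch of bases lying in a footprint of all 3 libraries. Peaks in bulk tissue do not tell apart a promoter open in more cells from one open more often in each cell.

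The stretches below are shown because they carry the shared footprints of the most accessible member of each family, or shared footprints that cover a known promoter motif. Each is read 5′ to 3′ on the strand of the gene from the reference genome GRCm38.p6, the mm10 build, and capitals mark bases inside a shared footprint. Exons of annotated mRNAs, of any gene and on either strand, take up at most 30 bases of a stretch. The Srsf2, Srsf7 proximal, Sf3b5, Hnrnpc proximal, Hnrnpll and both Snrpa stretches lie wholly in such exons. Positions are given from the GENCODE start used here, or from the RefSeq start at Sf3b5, and other annotated mRNAs may start further upstream. In the SR protein genes, Srsf3 (chr17:29032558-29032656, plus strand) had a 35-bp shared footprint upstream and another over a TATA box, Srsf2 (chr11:116853110-116853139, minus strand) and Srsf7 (chr17:80207345-80207385 and chr17:80207321-80207340, minus strand) had shared footprints over TATA-type sequences, and Srsf5 (chr12:80945434-80945503, plus strand) had one over an ETS motif.
Srsf3: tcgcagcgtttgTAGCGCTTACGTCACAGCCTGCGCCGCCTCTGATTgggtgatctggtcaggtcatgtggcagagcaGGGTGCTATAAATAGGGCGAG
Srsf2: attttGTAAGGGTGGGTATAAATGCGCGCT
Srsf7, upstream: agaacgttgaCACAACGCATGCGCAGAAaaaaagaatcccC
Srsf7, proximal: GCCGCCTATATAAGCGcgac
Srsf5: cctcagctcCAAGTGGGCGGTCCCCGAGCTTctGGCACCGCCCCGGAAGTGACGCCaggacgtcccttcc

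In the genes of snRNP proteins and of SF3a and SF3b, the stretches are those of Sf3b6 (chr12:4817444-4817543, plus strand), Sf3b2 (chr19:5295456-5295495, minus strand), Snrpa (chr7:27196367-27196396 and chr7:27196291-27196308, minus strand) and Snrpd2 (chr7:19149322-19149382, plus strand). That of Sf3b5 (chr10:13008355-13008384, plus strand) was added after its peaks were seen, and lies just upstream of its RefSeq start.
Sf3b6: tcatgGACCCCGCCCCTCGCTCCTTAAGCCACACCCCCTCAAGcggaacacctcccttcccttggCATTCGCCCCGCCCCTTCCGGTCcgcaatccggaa
Sf3b2: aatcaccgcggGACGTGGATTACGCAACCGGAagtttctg
Snrpa, upstream: cCCAGGAGGAAATGACGTCACCCGGCCAgc
Snrpa, proximal: aagGTCACGTGATactgg
Snrpd2: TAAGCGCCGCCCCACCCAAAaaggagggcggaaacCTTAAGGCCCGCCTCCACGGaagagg
Sf3b5: cactcttcgaagTAGGCGGgctccgtgagg

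In the hnRNP genes, Hnrnpc (chr14:52104388-52104428 and chr14:52104334-52104363, minus strand) held the strongest promoter peak of the 52 genes, and Hnrnpa2b1 (chr6:51469904-51470054, minus strand), Hnrnpab (chr11:51606897-51606937, minus strand), Hnrnpll (chr17:80062405-80062434, minus strand), Hnrnpr (chr4:136310862-136310902, plus strand) and Hnrnpul1 (chr7:25754797-25754897, minus strand) had shared footprints at a CCAAT box.
Hnrnpc, upstream: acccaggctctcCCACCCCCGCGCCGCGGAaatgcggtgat
Hnrnpc, proximal: aaGCACTGATAGGACGATGCGGCCGTCAGT
Hnrnpa2b1: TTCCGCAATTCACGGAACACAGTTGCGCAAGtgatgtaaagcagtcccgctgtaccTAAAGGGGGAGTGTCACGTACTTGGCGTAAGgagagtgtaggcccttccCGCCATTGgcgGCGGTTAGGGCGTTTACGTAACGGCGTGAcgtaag
Hnrnpab: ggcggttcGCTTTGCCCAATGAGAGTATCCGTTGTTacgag
Hnrnpll: TTCTTCCAGCCAATTGGAAGCCAGATCGAc
Hnrnpr: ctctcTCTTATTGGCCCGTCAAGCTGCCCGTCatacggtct
Hnrnpul1: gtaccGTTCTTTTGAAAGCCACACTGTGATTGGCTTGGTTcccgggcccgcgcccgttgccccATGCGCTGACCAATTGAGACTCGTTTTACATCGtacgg

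The libraries differed in the number of peaks, with 34369, 122281 and 60862 in replicates 1, 2 and 3, and of footprints, with 89836, 342756 and 156638. A gene with a peak in replicate 2 alone is therefore one seen only in the library with the longest list. Low signals were whole multiples of a step of 0.0112, 0.00347 and 0.00692 by library, so the median member promoter stood at 418, 3804 and 1362 steps, which are counts only under the assumption of 1 count per step. Among marker lists for the tissue, 11 of 13 erythroid genes, 4 of 11 hepatoblast genes and 0 of 6 macrophage genes had a promoter peak in every library, beside 51.4% of all genes. The hepatoblast share of 36.36% was near that of the endothelial and neural lists, 33.33% each. The hepatoblast and macrophage counts rest on replicate 1, the library with the fewest peaks: by library, 4, 10 and 8 hepatoblast genes and 0, 4 and 3 macrophage genes had a promoter peak. Foxa3, the highest hepatoblast gene at a mean percentile of 84.41, had a start of Sympk in its window. The hepatoblast gene Alb had none in any library. How far the makeup of cell types in each sample sets the ranks below was not tested.

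Nearly all of these genes had an accessible promoter in embryonic liver. A promoter peak was listed for 50 of the 52 members in replicate 1, beside 54.0% of all protein-coding genes, for 52 in replicate 2, beside 67.3%, and for 50 in replicate 3, beside 56.4%. In every library the same 50 members (96.15%) had one, beside 51.4% of all genes. The mean share over libraries was 97.44% ± 2.221 (SD, n = 3) for members and 59.24% ± 7.111 (SD, n = 3) for all genes. Sf3b5 and Srsf12 were the members without a peak in replicates 1 and 3.

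Member promoters also ranked high among open ones. The median percentile of members was 86.49 in replicate 1, 86.23 in replicate 2 and 86.10 in replicate 3, which average 86.27 ± 0.197 (SD, n = 3). The 11236 genes with a promoter peak in every library had a median percentile of 74.27 ± 0.01585 (SD, n = 3). They make up 51.4% of the ranked genes, and genes without a peak rank below them. Their median and its small spread are thus largely set by the ranking itself. CpG-rich promoters tend to be open in many tissues. The 7800 other genes with CpG counts in the middle range of the members had a median percentile of 73.07 ± 0.08117 (SD, n = 3). That range was 13 to 31 CpG sites in the 300-bp core at the most upstream coding start. Of these 7800 genes, 83.15% had a promoter peak in every library, and how CpG content relates to rank was not tested. In signal, the median member stood at 4.68, 13.21 and 9.429, and the median gene with a peak in every library at 3.135, 7.776 and 4.963. The 13 members at percentile 90 or more in every library made up 25% of the members, beside 6.50% of all genes, and 49 members were at percentile 50 or more in every library, beside 47.2% of all genes.

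**Figure D1:**
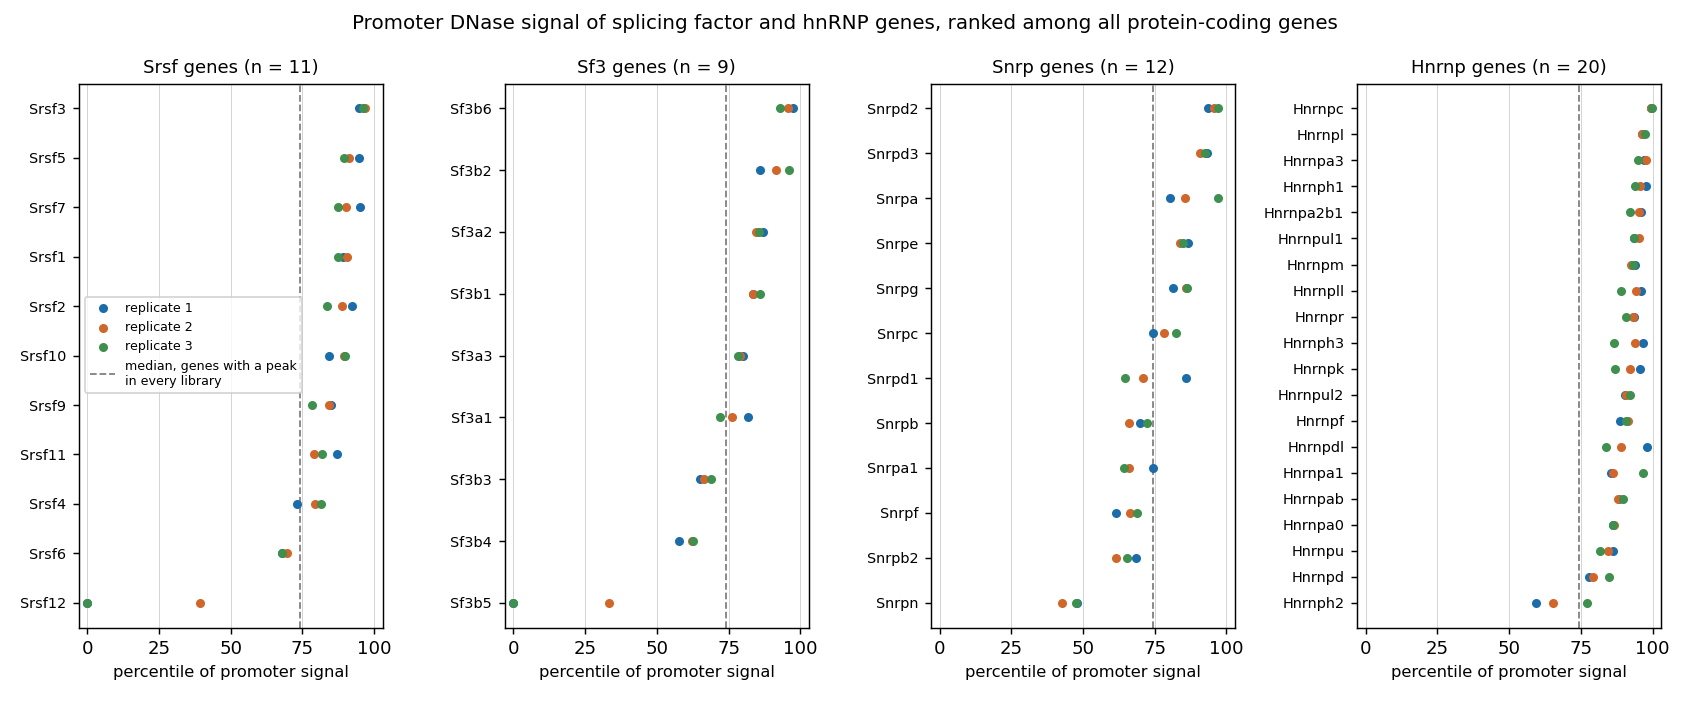
Percentile of promoter signal among 21851 protein-coding genes (x axis, 0 to 100) for each of the 52 members, by family, with 1 point per replicate and a dashed line at 74.27, the median percentile of genes with a promoter peak in every library. Hnrnp genes crowd at the right from 67.19 to 99.53 in mean percentile, and Srsf12 and Sf3b5 stand at 0 in replicates 1 and 3.

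The families stood in different places in that ranking. Hnrnp genes had a median percentile of 92.23 ± 1.518 (SD over 3 libraries), Srsf genes 86.48 ± 2.771, Sf3 genes 79.64 ± 1.752 and Snrp genes 76.34 ± 1.646. All 20 Hnrnp and all 12 Snrp genes had a promoter peak in every library, as did 10 of 11 Srsf and 8 of 9 Sf3 genes. Percentile 90 or more in every library was reached by 9 Hnrnp, 2 Snrp, 1 Srsf and 1 Sf3 genes. In each library the Hnrnp median was above the other family medians, and the Snrp median was the lowest. Differences between families were not tested, since genes are not replicates.

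Among the proteins of the snRNPs themselves, the Sm ring genes ranged widely. Snrpd2, which encodes the Sm protein D2, had promoter signals of 5.956, 21.07 and 19.39 and percentiles of 93.41, 95.78 and 97.21. Its strongest peak was centred at -351, -361 and -381 bp from its start in the 3 libraries, nearer to the start of Qpctl, a gene on the opposite strand whose start lies at -431 bp. The printed Snrpd2 stretch is from that peak, and these data cannot tell apart which of the pair of genes its signal and footprints belong to.

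Snrpd3, the Sm protein D3 gene, followed with signals of 5.945, 16.23 and 13.62 and percentiles of 93.33, 90.83 and 92.39. Its strongest peak was at chr10:75517821-75518060 in replicate 1 and elsewhere in the other two, at chr10:75517281-75517520 in replicate 2 and chr10:75517301-75517500 in replicate 3. Snrpd3 and its neighbour Gucd1 have several annotated starts each, and in every library that peak was centred nearer to one of Gucd1. The U1 snRNP gene Snrpa, whose protein binds a stem loop of the U1 RNA, had percentiles of 80.20, 85.43 and 97.18 from signals of 3.852, 12.8 and 19.33. Its rank was high in replicate 3 and lower in the other two, a range of 16.98 points.

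At the low end, Snrpb2, a protein of the U2 snRNP, had signals of 2.497, 3.542 and 2.804 and a mean percentile of 65.06 ± 3.462 (SD, n = 3). Snrpn, an imprinted gene expressed from the paternal copy and best known from brain, had signals of 0.5374, 0.5105 and 0.4361. These put it at percentiles of 47.96, 42.85 and 47.50, below the median of all genes in each library. Snrpn was annotated with 2 promoter windows, of which the upstream one had no peak in any library and the downstream one, shared with Snurf, held all of this signal.

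Snrpd1, the Sm protein D1 gene, had the widest percentile range of the members with a peak in every library, at 21.29 points. Its percentiles were 85.95, 70.78 and 64.66 in replicates 1, 2 and 3, from signals of 4.59, 6.564 and 2.644, so it ranked highest in the library with the fewest peaks. Grouped by role, the 8 Sm ring genes had a median percentile of 79.83 ± 3.409 (SD, n = 3), the U1 proteins Snrpa and Snrpc 82.93 ± 6.329, and the U2 proteins Snrpa1 and Snrpb2 66.63 ± 4.085.

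The SF3a and SF3b genes were led by Sf3b6, whose small protein contacts the branch point adenosine. Its signals were 7.266, 20.85 and 14 and its percentiles 97.48, 95.59 and 92.93, and the printed stretch holds 61 of 100 bases in shared footprints, with GC boxes at positions -91 and -27. Sf3b2 had percentiles of 85.79, 91.47 and 95.96, and Sf3a2 86.99, 84.48 and 85.56. Sf3b1, the branch point binding subunit that is often mutated in myelodysplastic syndromes, was added after its values were seen: it stood at 83.47, 83.55 and 85.90, close in all libraries. Sf3b4 was low among the genes with a peak, with signals of 1.411, 3.841 and 2.25 and a mean percentile of 60.99 ± 2.681 (SD, n = 3).

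Sf3b5, a single-exon gene for a small SF3b subunit, was the lowest of all members at a mean percentile of 11.11, and this value rests on the annotated start. Within its window replicate 2 alone had peaks, with signals of at most 0.1702, in a library where 67.3% of all genes had a promoter peak. The GENCODE start lies at chr10:13005343, and the RefSeq start of the same gene lies 3107 bp downstream at chr10:13008450. A peak covered the RefSeq start in every library, from chr10:13008301 to 13008580 in replicate 1, with signals of 3.034, 10.14 and 8.771.

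With the window set on the RefSeq start, Sf3b5 stood at percentiles of 73.35, 80.28 and 84.64, a mean of 79.42 ± 5.696 (SD, n = 3). That window held 6, 14 and 6 footprints and 2 shared ones, of which the printed Sf3b5 stretch shows the upstream one. The 300-bp core had 20 CpG sites at the RefSeq start and 3 at the GENCODE start. This window was chosen after the peaks were seen, and with it 51 of 52 members had a promoter peak in every library.

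**Figure D2:**
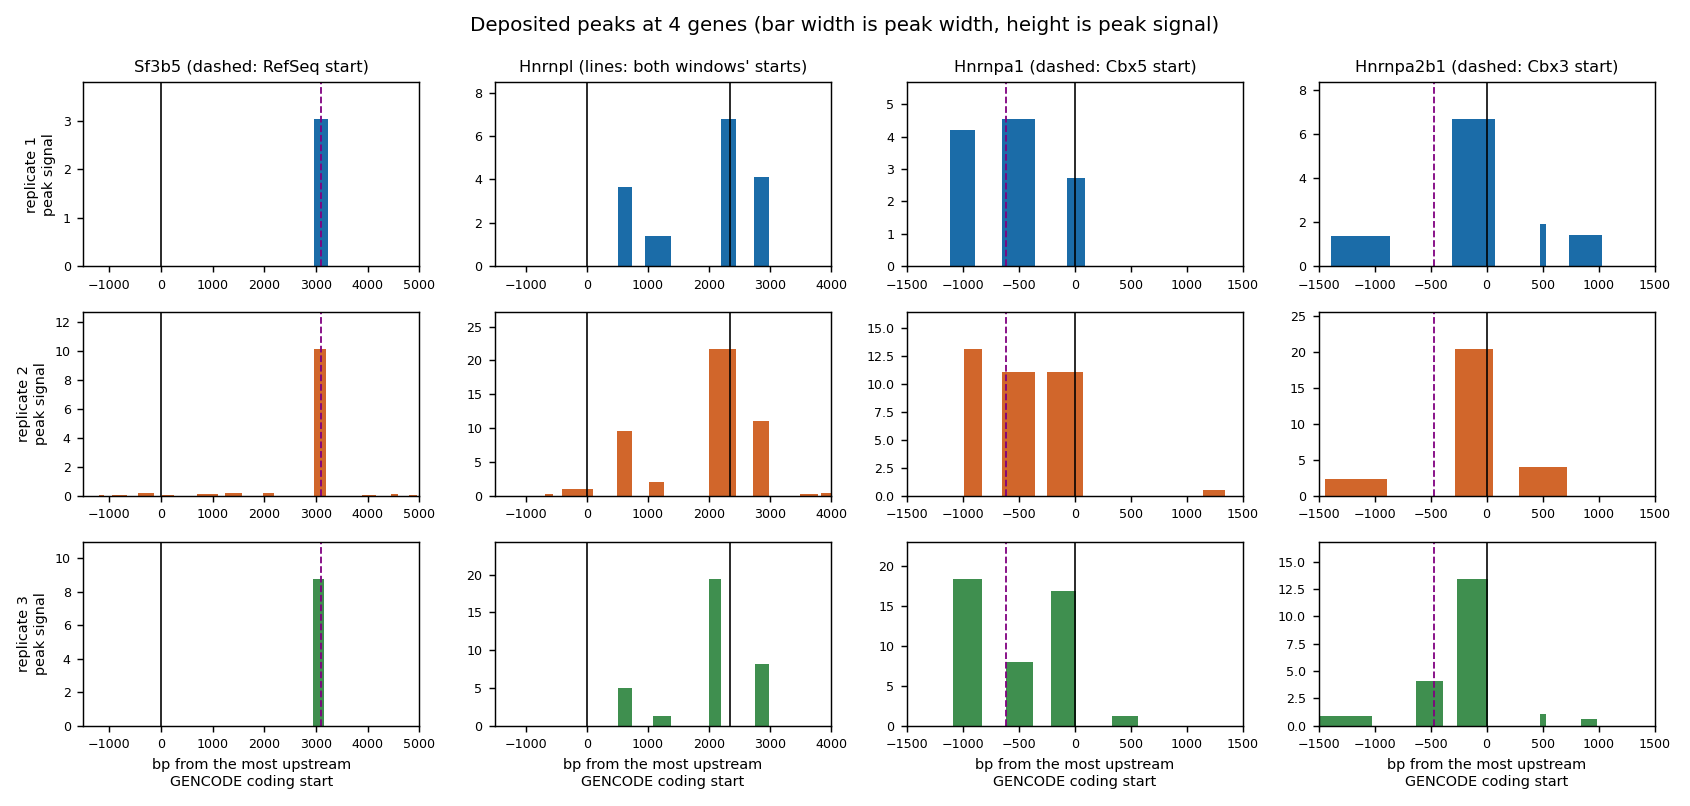
Deposited peaks at Sf3b5, Hnrnpl, Hnrnpa1 and Hnrnpa2b1 in each replicate, by distance from the most upstream GENCODE coding start (x axis, bp), with bar width as peak width and bar height as peak signal (y axis, from 0, scaled per panel). At Sf3b5 the strong peak of each library lies at the RefSeq start, 3107 bp downstream, and at Hnrnpl it covers the downstream start, 2349 bp from the upstream one, in replicates 1 and 2 and lies between 2000 and 2199 bp in replicate 3.

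Among SR protein genes, Srsf3, which encodes the smallest SR protein with a role in mRNA export, ranked highest. Its signals were 6.315, 22.46 and 17.29, its percentiles 94.74, 96.66 and 95.96, and its signal was 2.80-fold ± 0.739 (SD, n = 3) that of the median gene with a peak in every library. Srsf5 stood at percentiles of 94.74, 91.17 and 89.39 and Srsf7, an SR protein with a zinc knuckle, at 94.89, 90.32 and 87.27. Both ranked highest in replicate 1 and lowest in replicate 3. Srsf6 was low with signals of 2.441, 6.199 and 3.323 and a mean percentile of 68.43 ± 1.051 (SD, n = 3), although it had 9 shared footprints.

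Srsf12 was the exception in this family. It had no promoter peak in replicates 1 and 3 and a weak one in replicate 2, with a signal of 0.3855, centred 446 bp downstream of its start. Its core held 5 CpG sites, where the median of the Srsf genes was 28, and it had 0, 4 and 0 footprints in the 3 libraries, with none shared. Like Sf3b5, it was listed only in the library with the longest list.

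The hnRNP genes held the strongest promoters. Hnrnpc, whose protein binds uridine tracts and packages nascent RNA, had signals of 9.203, 30.77 and 30.02 and percentiles of 99.46, 99.41 and 99.72, the highest of the 52 members in every library. Its signal was 2.94, 3.96 and 6.05 times that of the median gene with a peak in every library. The peak lay upstream of the coding starts used here, at chr14:52104261-52104460 in replicate 1, and was centred at -333, -313 and -253 bp. The proximal printed stretch, within this peak, lies wholly in annotated mRNA exons. The capitals of the printed Hnrnpc stretches are its 2 largest shared footprints, 28 bases of a 31-bp one and all of an 18-bp one, and it had 3 shared footprints in all.

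Hnrnpl, whose protein binds CA-rich RNA, had percentiles of 96.32, 96.23 and 97.30. Of its 2 promoter windows the downstream one was the stronger, with signals of 6.785, 21.72 and 19.47 against 3.672, 9.547 and 4.977 for the upstream one. It had 18 shared footprints, the most of any member, over both windows. Hnrnpa3 stood at percentiles of 97.03, 97.85 and 94.88, from signals of 7.031, 24.7 and 15.91.

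Hnrnpdl had the second highest number of shared footprints, 15, and the widest single one, 50 bp, at chr5:100038986-100039035. Its strongest peak lay downstream of its start, centred at 211, 221 and 211 bp, and its percentile was 97.97, 89.10 and 83.79. Srsf2, which encodes the SR protein SC35, and Hnrnpa0 tied with 14 shared footprints. Hnrnpa0 hardly moved in rank between libraries, at 86.28, 86.38 and 86.06, a range of 0.3112 points.

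The lowest of the family was the X-linked Hnrnph2, with signals of 1.545, 4.768 and 5.85 and percentiles of 59.23, 65.25 and 77.09. Its paralog Hnrnph1, added after the values were seen, was at 97.56, 95.68 and 93.80, above Hnrnph2 in every library. Hnrnpd, whose protein binds AU-rich elements, was the next lowest at 77.95, 79.26 and 84.78. By subgroup the hnRNP A/B and D genes (7) had a median percentile of 88.65 ± 0.8876 (SD, n = 3), the F and H genes (4) 91.30 ± 2.231, the U genes (3) 91.13 ± 1.026, the L genes (2) 94.80 ± 1.577, and C, K, M and R together 93.11 ± 1.452.

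Ranks of the 52 members were alike between libraries, with Spearman's rho of 0.913 for replicates 1 and 2, 0.739 for 1 and 3 and 0.899 for 2 and 3 across members, which share the library and are not replicates. The percentiles of 43 members lay within 10 points of each other over the 3 libraries and those of 26 within 5. Neither these counts nor the rho values have a value over all genes beside them, so steady ranks are not shown to be particular to members. Because Srsf12 and Sf3b5 had a peak in replicate 2 alone, they had the widest ranges, 39.22 and 33.33 points.

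A start of another coding gene lay inside the promoter window of 18 members, in 17 cases on the opposite strand. No share over all genes is given beside this count, so it is not shown to be particular to the members. For 5 of the 18 (Hnrnpa1, Hnrnpd, Sf3b3, Snrpd2 and Snrpd3) the strongest peak of every library was centred nearer to a start of the other gene, and for 7 nearer to a start of the member. Members named in this paragraph beyond Hnrnpd, Snrpd2 and Snrpd3 were chosen after their values were seen. At Hnrnpa1, whose neighbour Cbx5 starts at -616 bp, each library had 3 upstream or start-proximal peaks. The peak over the Hnrnpa1 start had signals of 2.721, 11.03 and 16.81, the middle peak 4.546, 11.06 and 7.996, and the peak on the far side of the Cbx5 start 4.199, 13.13 and 18.37.

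At Hnrnpa2b1, whose shared promoter region with Cbx3 is known as a chromatin opening element kept open in most tissues, the strongest peak lay over the Hnrnpa2b1 start. That peak had signals of 6.673, 20.48 and 13.46, percentiles of 95.91, 95.25 and 92.23, and 99 of the 151 printed bases were in shared footprints. A peak on the Cbx3 side was listed with signals of 1.355, 2.396 and 0.8999, and replicate 3 had another over the Cbx3 start, with a signal of 4.084. For the 34 members whose window overlaps that of no other coding gene, the median percentile was 86.10 ± 0.04234 (SD, n = 3), against 86.27 for all members.

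Where a member had several windows, the choice of start mattered. Hnrnpf, added after its values were seen, had 4 windows, and the window at its most upstream start had signals of 0, 1.348 and 1.689. The window 6455 bp further downstream had signals of 5.05, 16.6 and 12.36, and the one at 16954 bp had 3.885, 12.46 and 9.505. With the most upstream start alone, 46 members had a promoter peak in every library instead of 50, beside 49.47% of all genes instead of 51.42%.

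Peaks and footprints clustered just upstream of the start sites. The strongest peak of a member was centred at a median of -44.5, -49 and -60 bp from the nearest coding start. Of these peaks, 37 of 50, 38 of 52 and 38 of 50 were centred between 250 bp before and 50 bp after it. Positions of peaks and footprints at other open promoters are not given here, so this placement is not shown to be particular to members. In every library 49 members had a promoter footprint (94.23%), beside 49.5% of all genes and 96.21% of the genes with a promoter peak in every library. A shared footprint was found at the same 49 members, beside 45.2% of all genes and 87.9% of those with a promoter peak in every library. Members without one were Sf3b5, Srsf12 and Snrpn.

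The 319 shared footprints of the members had a median width of 10 bp, the same as those of all genes with a promoter peak in every library, and 198 (62.07%) were centred from 250 bp before to 50 bp after the start. Bases with a deposited false discovery rate up to 0.05 covered a median of 1141, 1660 and 1318 bp of the windows of members and of 748, 1317 and 869 bp of the windows of genes with a promoter peak in every library. Hnrnp genes had a median of 12, 25.5 and 14.5 footprints per promoter in the 3 libraries, Srsf genes 9, 21 and 11, Sf3 genes 6, 11 and 7, and Snrp genes 5, 10 and 5.5. Genes with a promoter peak in every library had a median of 5, 12 and 7, so the Snrp and Sf3 values were near those of other open promoters. Both footprints and bases were summed over all windows of a gene and not scaled for window length. Genes with several starts can have longer windows, and how far this sets the differences was not tested.

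**Figure D3:**
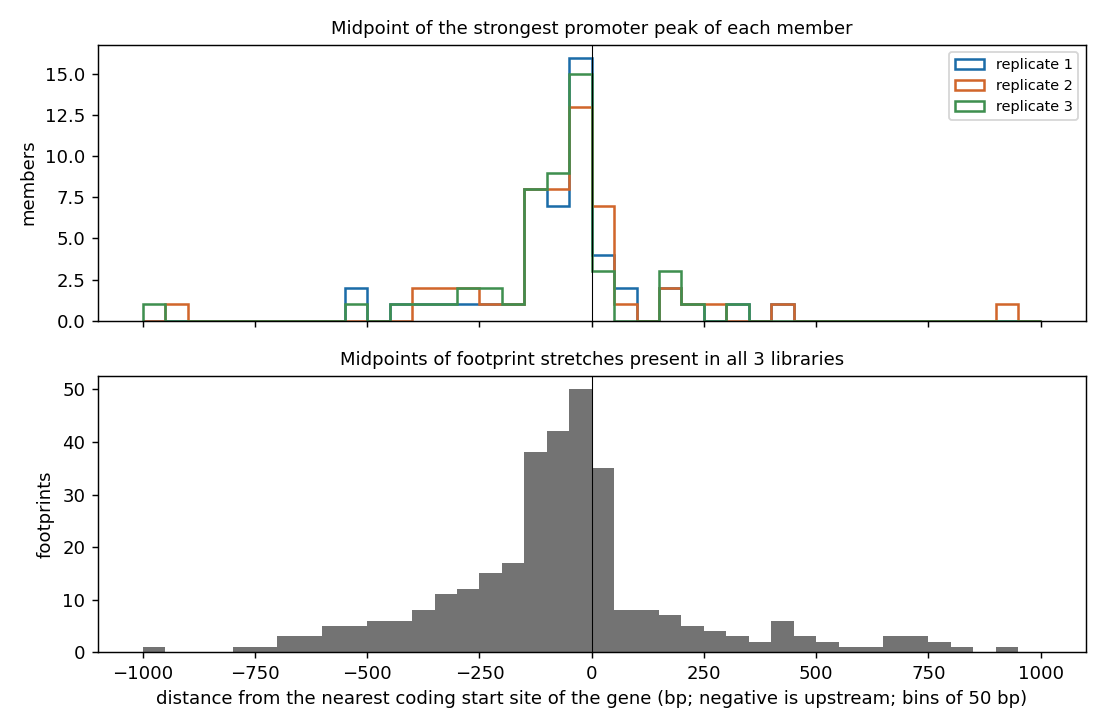
Distance of the midpoint of each member's strongest promoter peak (upper panel, members per 50-bp bin, 1 line per replicate) and of each of the 319 shared footprints (lower panel, footprints per bin) from the nearest coding start, in bp, negative upstream. Both pile up just upstream of 0, with median peak midpoints of -44.5 to -60 bp and a median footprint midpoint of -65 bp.

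Motifs were searched as exact letters on both strands in the 300-bp core of the promoter. The core ran from 250 bp before to 50 bp after the most upstream GENCODE coding start of a gene. It can therefore lie away from the strongest peak, as at Hnrnpf, Hnrnpl and Sf3b5, and a motif in the core need not lie in open DNA. The ETS motif CCGGAAGT, bound by factors such as GABPA, was in the core of 9 members (17.31%), beside 8.82% of genes with a promoter peak in every library and 4.933% of all genes. Those members were Hnrnpd, Hnrnpf, Sf3a1, Sf3a3, Sf3b2, Snrpb, Snrpe, Srsf4 and Srsf5. In Srsf5 the motif starts at position -28 and all 8 bases lie in a shared footprint, and its last base is the first of a short CRE, TGACG, at -21. In Sf3b2 it starts at -13 and 5 of its 8 bases are in one.

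The GC box GGGCGG was in the core of 34 members (65.38%), beside 66.11% of genes with a peak in every library and 44.91% of all genes, so the members' share is near that of other open promoters. The E2F motif TTCCCGCC was in the core of 5 members (9.615%), beside 4.69% and 3.039%. Short CREs were in 21 members (40.38%), beside 33.33% and 23.45%. The full CRE, TGACGTCA, was found in Snrpa alone (1.923%, beside 3.836% and 2.499%), where it starts at -113 and lies whole in a shared footprint. Snrpa also had 2 E-boxes, CACGTG, of which the one at -32 was in a shared footprint and the one at -73 was not.

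CCAAT boxes were in the core of 23 members (44.23%), beside 39.65% of genes with a peak in every library and 38.84% of all genes. In a shared footprint widened by 5 bp on each side the motif was found in 7 members (13.46%), beside 7.458% of genes with a peak in every library. Of these 7, 6 were Hnrnp genes (Hnrnpa2b1, Hnrnpab, Hnrnpll, Hnrnpr, Hnrnpul1 and Hnrnpul2), and the other was Srsf3. In the printed stretches the Hnrnpab box starts at position -75, and Hnrnpll has overlapping copies of both strands, read as CCAATTGG, from -91. Hnrnpul1 has a box on each strand, at -112 and -68, in separate shared footprints.

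The TATA box TATAAA was in the core of 7 members (13.46%), beside 6.461% of genes with a peak in every library and 12.53% of all genes. It was found in a shared footprint widened by 5 bp in Srsf2 and Srsf3 (3.846% of members, beside 0.6586% of genes with a peak in every library). In Srsf2 it starts at -29, inside a 25-bp shared footprint, and the printed stretch lies wholly in annotated mRNA exons, as does the proximal one of Srsf7. In Srsf3 it starts at position 15, downstream of the annotated start, inside a shared footprint centred at 21 bp. Srsf7, whose TATATAA sequence was noticed only in the printed stretch, has it at -29 in a shared footprint, and was the only member with the NRF1 motif GCATGCGC (1.923%, beside 5.829% of genes with a peak in every library and 3.798% of all genes).

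The GATA motif AGATAA was in the core of 7 members (13.46%, beside 6.034% of genes with a peak in every library and 9.926% of all genes). In a shared footprint widened by 5 bp it was found in 0 members, beside 0.1691% of genes with a peak in every library. The remaining motifs were each rare or near the background: YY1 AAGATGGC in 2 members (3.846%, beside 4.726% and 2.961%), the palindrome CTCGCGAG in 2 (3.846%, beside 2.109% and 1.236%), ACTACAA of ZNF143 and THAP11 in 3 (5.769%, beside 4.521% and 3.78%), and CTTTC, a pyrimidine tract of the kind found at starts of translation genes, in 28 (53.85%, beside 51.95% and 55.66%). E-boxes were in 4 members (7.692%, beside 10.39% and 7.78%). Short CREs lie within the full CRE, and a match of letters is a description, not a bound site.

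**Figure D4:**
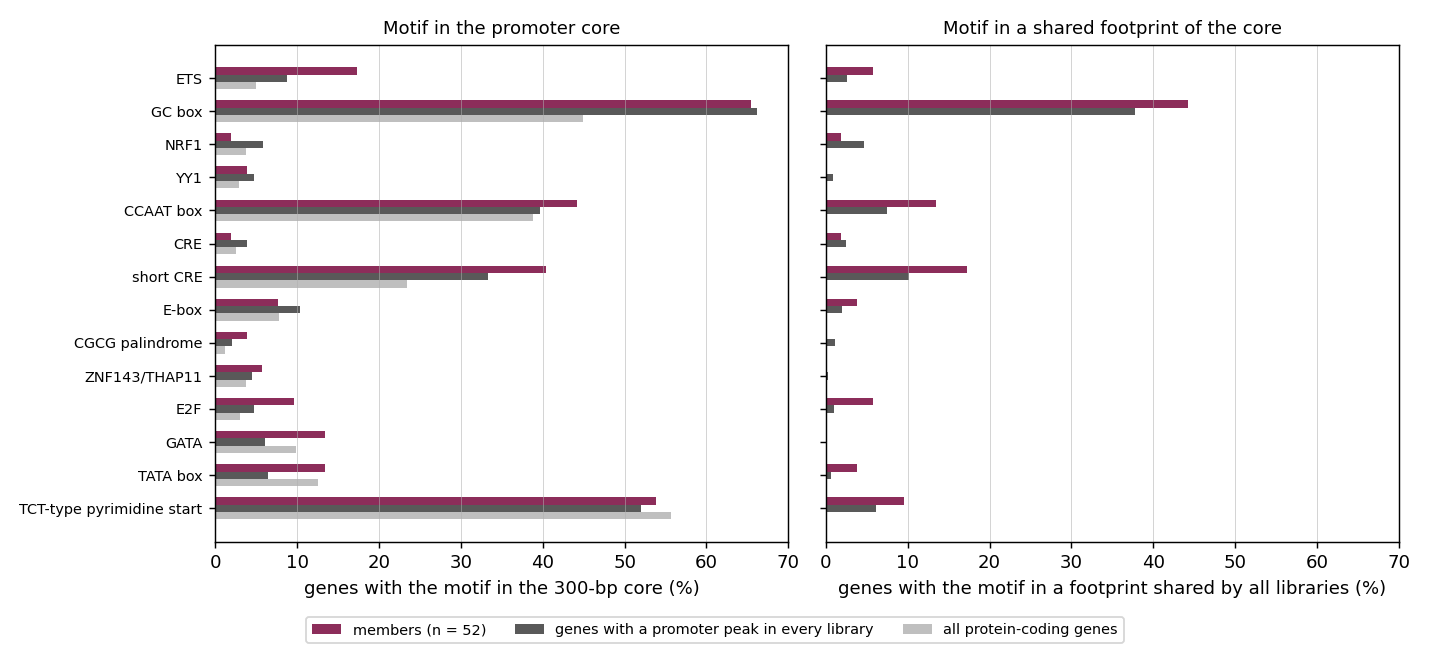
Percentage of genes with each of 14 motifs in the 300-bp promoter core (left) and in a shared footprint of the core, widened by 5 bp on each side (right), for the 52 members, genes with a promoter peak in every library and, on the left, all protein-coding genes. The ETS bar of members reaches 17.31% beside 8.82%, and the GC box bars of members and other open promoters are nearly level at 65.38% and 66.11%.

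Other genes of the splicing pathway gave a frame for these values. In 30 further snRNP and spliceosome genes, all 30 had a promoter peak in every library and the median percentile was 85.88 ± 1.39 (SD, n = 3), from Prpf18 at 61.34 to Snrnp70, the U1 70K protein gene, at 99.87. All 8 LSm genes, relatives of the Sm proteins, had one too, with a median of 89.15 ± 4.219, from Lsm5 at 64.22 to Lsm4 at 96.73. The 12 genes of snRNP assembly, the SMN complex and the arginine methylation machinery among them, had a peak in every library and a lower median of 70.31 ± 2.807. They ran from Gemin7 at 58.25 to Prmt5, the methyltransferase for Sm proteins, at 98.98.

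Of 14 kinases of SR proteins and SR-related genes, 13 had a promoter peak in every library, and the median percentile was 87.37 ± 0.9402 (SD, n = 3). Clk4, a kinase of SR proteins, was highest at a mean of 98.39, and Srpk2, without a peak in replicate 1, lowest at 32.93. The 22 broadly expressed RNA-binding regulators all had a peak in every library and a median of 84.46 ± 0.8397, from Rbfox2 at 57.73 to Rbm39 at 98.64. Of the 22 regulators known mainly from brain, muscle or epithelium, 10 (45.45%) had a peak in every library, beside 51.4% of all genes. Their median was 47.07 ± 2.349, beside 49.92 for all genes, so both values were near those of all genes.

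Within that list of tissue-restricted regulators, Celf6 was highest at a mean percentile of 77.70, and Srrm3 and Srpk3 had no promoter peak in any library. The share of the list with a peak was 59.09%, 90.91% and 54.55% in replicates 1, 2 and 3, beside 54.0%, 67.3% and 56.4% of all genes. It was highest in the library with the longest peak list, as were the share of all genes and that of members, at 96.15%, 100% and 96.15%. The median number of CpG sites in the core was 22.5 for these regulators, beside 23 for the members. How CpG content relates to the difference in rank was not tested.

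**Figure D5:**
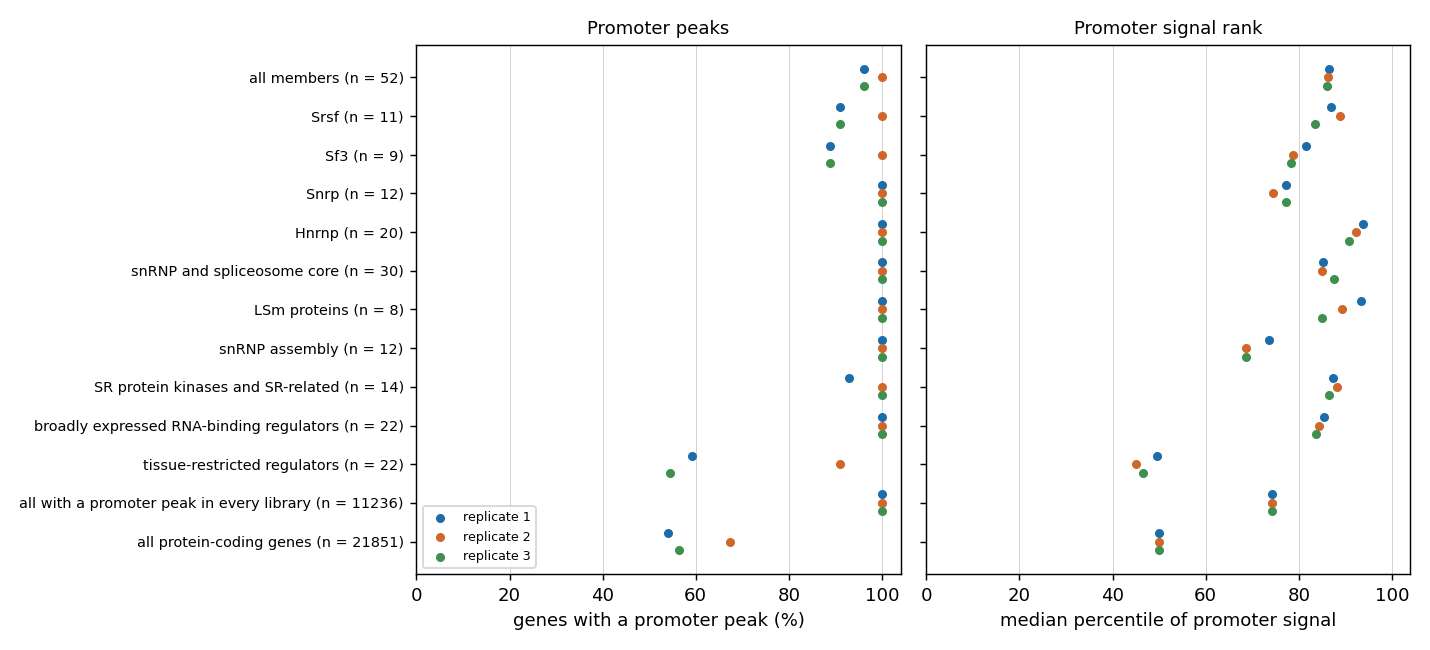
Percentage of genes with a promoter peak (left) and median percentile of promoter signal (right) in each replicate for the members, their families, 6 further lists of splicing genes, genes with a promoter peak in every library (100% by definition) and all protein-coding genes. The tissue-restricted regulators sit at 45.04 to 49.64 in median percentile, the members at 86.10 to 86.49.

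Within the gene bodies, more than 1000 bp from any annotated GENCODE start, peaks were few. A region found in all 3 libraries was present in 4 members (7.692%), beside 22.77% of the genes with a promoter peak in every library and 17.56% of all genes. The member values include the Sf3b5 peak, which covers the RefSeq start of that gene and is a body region by the GENCODE start only. Members are short, with a median gene length of 10446.5 bp beside 24685.5 bp for genes with a peak in every library, and per 100 kb of gene they had 0.424 such regions beside 0.6627. Apart from the Sf3b5 peak, the strongest was in an intron of Hnrnpu, at chr1:178336481-178336680, 1216 bp from the start, with signals of 4.4, 9.443 and 6.182. In replicate 1 it was also stronger than the Sf3b5 peak, at 3.034. Hnrnpu is named here because of these values. The others were weak: an exonic region of Hnrnpa0 (0.5598, 0.8439 and 1.156) and an intronic one of Hnrnpa1 (0.8061, 1.268 and 1.385).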

How the data were processed

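Per the labels, DNase-seq was done on 3 libraries and positions are in mm10. For each library the authors deposited 2 peak lists with a signal per peak, positions with an adjusted p-value (false discovery rate, at most 0.05) and footprints, whose deposited score was 0.01 in every row and was not used. The sources used here name neither the peak caller nor the footprint caller. The longer peak list was used, with overlaps of at least 1 bp. Genes and starts came from the GENCODE M21 basic annotation, and sequences from GRCm38.p6. Python 3.11.15, NumPy 2.4.6, bedtools 2.31.1 and Matplotlib 3.10.9 were used, and the window and ranking steps were tested on simulated data.

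The members, gene lists and motifs were chosen with earlier results of these data known. Named genes were members lacking a promoter peak in a library, the 3 highest and 2 lowest per family, the 3 with most shared footprints, the 3 with the widest percentile range, and the highest and lowest of each further list. All others are said to be chosen after their values were seen, as were the members compared for neighbouring starts, those listed with a motif and those with regions in the gene body. Stretches were printed for the top member of each family and for a selection of the members with a motif in a shared footprint widened by 5 bp. Others with such a motif, among them Hnrnpd, Hnrnpul2 and Srsf4, were not printed. Endothelial, neural and muscle marker lists had 2 of 6, 2 of 6 and 1 of 6 genes with a promoter peak in every library, beside 51.4% of all genes. Libraries of 1 group allow no test, and the spread is between these libraries only. Alternatives changed the peak list, window, start, number of peaks, overlap rule and libraries used.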

Additional observations from a re-analysis of the deposited data

How the results depend on the processing

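The number of members with a promoter peak in every library, 50 of 52, was 46 to 50 under the alternatives that kept all members and the GENCODE starts, and leaving out 1 replicate at a time left it at 50. Under these alternatives the share of all genes ran from 46.66% to 55.91%, against 51.42% in the main setting. With members of overlapping windows left out, the number was 32 of 34, and the share of all genes was not recomputed for that choice. The mean share with a peak, 97.44%, was 91.03% with the most upstream start only and 94.87% with equal numbers of strongest peaks (34369 per library), and between 96.15% and 98.08% without 1 replicate. The median percentile, 86.27, was 86.56 with windows of 500 bp, 85.83 with windows of 2500 bp, 85.82 with the most upstream start only and 89.02 with summed signals. It was 86.16 to 86.36 without 1 replicate. Members with a promoter footprint in every library, 49, numbered 32 of 34 with overlapping windows left out, and 46 to 50 otherwise, with 49 to 50 when 1 replicate was left out. Setting Sf3b5 on its RefSeq start, an alternative chosen after seeing the data, gave 51 members with a peak, beside 51.43% of all genes, and 50 with a footprint. No paired analysis was possible because the 3 libraries form 1 group. The unit of the signal is not stated in the sources used here, so read depth limits statements on absent peaks: a missing peak is not shown to be closed chromatin.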
